A study of Mus musculus with 19 samples.

Results

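The Sox genes described here encode 7 transcription factors known from neural progenitors: Sox2 and Sox3 (subgroup B1), Sox4 and Sox11 (subgroup C), Sox5 (subgroup D), and Sox8 and Sox9 (subgroup E). They were read through all probe sets annotated to 1 of these symbols alone, 28 of the 45037 probe sets left after the array's controls were set aside, and they are 7 of 18193 genes named on the array. A probe set was tested when its signal exceeded the 40th percentile of its array on at least 3 arrays. Of the 28, 22 passed, among 31143 of the whole table: 1 of Sox2, 2 of Sox3, 6 of 8 of Sox4, 4 of 7 of Sox5, 1 of Sox8, 2 of 3 of Sox9 and 6 of Sox11. The 6 probe sets that did not pass were dim, at mean signal percentiles of 10.1 to 27.6, and were not tested.

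Expression was measured in 19 medulloblastomas, each on 1 Affymetrix mouse array. All tumours had the genotype Ptch+/-p53-/- and were grown under the skin of nude (nu/nu) mice from cells that had been dissociated from tumours, so the vehicle group carries the same alleles and host as the treated groups. There were 3 tumours from vehicle-treated mice, labelled sensitive, and 8 tumours each from mice given NVP-LDE225 at 40 and at 160 mg/kg, all labelled resistant. NVP-LDE225 blocks Smoothened, the membrane protein that passes on the Hedgehog signal, and these tumours depend on that signal because Ptch normally holds Smoothened back. Treatment and resistance are thus 1 contrast and cannot be told apart. In their source names tumours 6 and 7 at 160 mg/kg are resistant, and the rest of the treated tumours are treated. The ages of the mice and the time of sampling are not given in the sources used here, nothing states that each tumour came from its own animal, and the p-values then reflect no more than the spread among these samples.

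Sox proteins bind DNA through an HMG box, a domain that bends the double helix, and they act together with partner factors. Sox2 and Sox3 hold neural cells in the progenitor state, while Sox4 and Sox11 come into play as progenitors commit to becoming neurons and switch on neuronal genes. Sox9 is needed to form and keep neural stem cells and for glial fate, Sox8 and Sox9 act with Sox10 in glia, and Sox5, which lacks an activation domain of its own, modifies the action of other Sox proteins. In Hedgehog-driven medulloblastoma, Sox2 is known as a marker of a small, slowly dividing stem-like population, and the bulk of the tumour resembles granule neuron precursors of the cerebellum.

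The graft identity was checked first. Atoh1, the transcription factor that defines granule neuron precursors, read 1313 ± 113 (SD, n = 3) in the vehicle tumours, and Zic1, another marker of that lineage, read 3448 ± 208. Among the treated tumours Atoh1 ran from 22.5 to 1954. All but tumours 3 and 4 at 40 mg/kg and tumour 6 at 160 mg/kg read below the lowest vehicle value, 1196. The lowest Atoh1 value was that of tumour 2 at 160 mg/kg. There Barhl1, a further precursor gene, read 32.7 against 614 ± 8.96 in vehicle, although Zic1 was high at 5903. Barhl1 read below all vehicle tumours except in tumour 3 at 40 mg/kg and tumours 6, 7 and 8 at 160 mg/kg. Neither Atoh1 nor Barhl1 was called in limma. Zic1 was above all vehicle tumours except in tumour 5 at 160 mg/kg, and was called higher. The highest Atoh1 value was that of tumour 6 at 160 mg/kg. Vehicle tumour 3 and tumour 2 at 160 mg/kg were the arrays least like the others, with mean correlations of 0.927 and 0.930.

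Against vehicle, the change that passed the test was a rise of Sox11, on all 6 of its probe sets. For the mean of both doses, 6 of the 22 Sox probe sets were called higher in limma at an adjusted p under 0.05, where 2.64% of all probe sets tested were called higher. None of the 22 was called lower, against 1.83% of all. At an unadjusted p under 0.05 there were 8, the 6 of Sox11 and 1 each of Sox4 and Sox8 with negative differences, where 21.5% of all probe sets passed in either direction. The median log2 difference was -0.12 over the 22 Sox probe sets and -0.06 over all tested. The 6 calls are of a single gene, so they count as 1 gene measured repeatedly, not as 6 independent results.

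**Figure D1:**
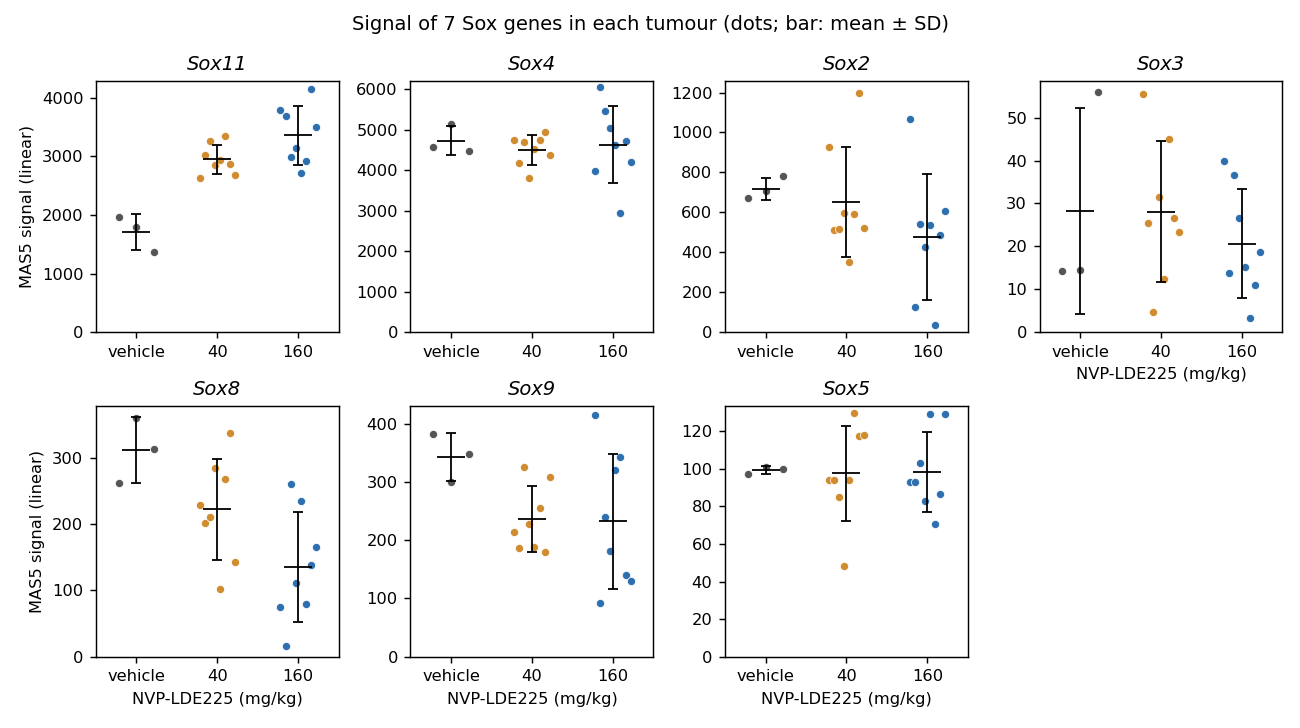
Signal of the brightest probe set of each Sox gene (vertical axis, linear MAS5 signal, own scale per panel) in vehicle, 40 mg/kg and 160 mg/kg tumours; each dot is a tumour and the bar gives mean ± SD (n = 3, 8 and 8). All 16 treated tumours lie above the 3 vehicle tumours for Sox11, whereas for the other 6 genes some lie within or on both sides of the vehicle range. For Sox8 the 8 tumours at 160 mg/kg all lie below that range, and the share of all probe sets that do so was not counted.

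Sox11 was represented by probe set 1431225_at, the brightest of its kept probe sets. The vehicle tumours read 1960, 1789 and 1364. Signals ran at 40 mg/kg from 2638 to 3341 with a median of 2903, and at 160 mg/kg from 2709 to 4146 with a median of 3315. Every treated tumour was above every vehicle tumour, so the groups did not overlap. The mean was 1705 ± 307 in vehicle, 2950 ± 250 at 40 mg/kg and 3357 ± 498 at 160 mg/kg. The log2 difference for both doses was 0.89 (SE 0.11, 95% interval 0.65 to 1.13), a 1.85-fold rise with an adjusted p of 0.000417 in limma. It was called in 19 of 19 fits that left out an array and in all 11 other settings tried for this comparison, at 0.73 to 1.00. Because whole tumours were measured, more cells that express Sox11 and more Sox11 RNA per cell cannot be told apart, and the same holds for every value below.

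For the mean of both doses the other 5 Sox11 probe sets gave smaller changes in the same direction. At 160 mg/kg alone 1453002_at gave a log2 difference of 1.10, larger than the 0.98 of 1431225_at. Probe set 1453002_at read 744 ± 94.4 in vehicle, 1183 ± 236 at 40 mg/kg and 1608 ± 285 at 160 mg/kg. Its log2 difference for both doses was 0.87 with an adjusted p of 0.00288 in limma. Probe set 1436790_a_at, the dimmest, read 419 ± 17.6, 682 ± 69.8 and 763 ± 113, with a log2 difference of 0.77 and an adjusted p of 0.000999. For 1453125_at and 1429051_s_at the differences were 0.74 and 0.62. The smallest change was that of 1429372_at, at 0.48 with an adjusted p of 0.0295. On that probe set 13 of 16 treated tumours lay above all vehicle tumours, 5 of 8 at 40 mg/kg and 8 of 8 at 160 mg/kg, while on the other 5 all 16 did. Over all probe sets tested, 1.83% had 16 of 16 treated tumours above the vehicle tumours.

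**Figure D2:**
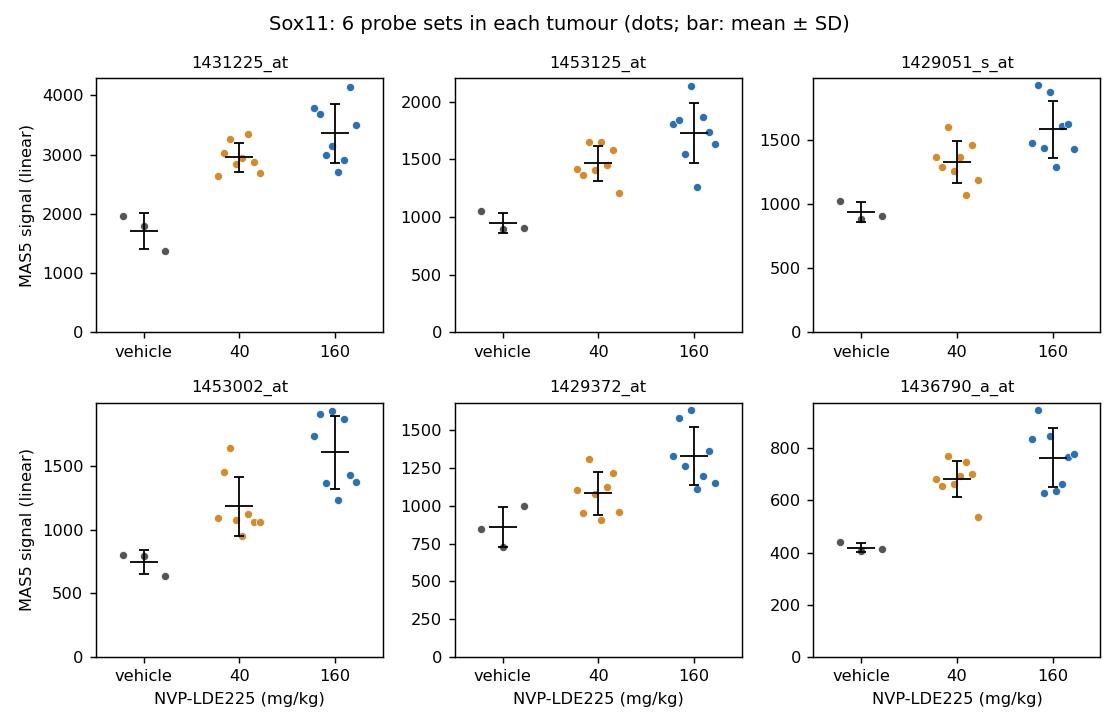
Linear MAS5 signal (vertical axis) of the 6 Sox11 probe sets in vehicle, 40 mg/kg and 160 mg/kg tumours (dots), with mean ± SD (n = 3, 8 and 8). The 3 vehicle tumours lie below all treated tumours on 5 probe sets, and on 1429372_at they overlap 3 tumours of the 40 mg/kg group.

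By dose, 5 of the 22 Sox probe sets were called higher at 40 mg/kg, where 1.52% of all were called higher, and 6 at 160 mg/kg, where 2.27% of all were. All were Sox11. No Sox probe set was called lower in limma at either dose, where 0.629% and 1.77% of all were, and at an unadjusted p under 0.05 there were 6 at 40 mg/kg and 9 at 160 mg/kg in either direction, where 19.3% and 20.4% of all passed. The probe set not called at 40 mg/kg was 1429372_at, with a log2 difference of 0.33 and an adjusted p of 0.169. The representative probe set differed from vehicle by 0.80 at 40 mg/kg (adjusted p 0.00294 in limma) and by 0.98 at 160 mg/kg (adjusted p 0.000499). The count at 40 mg/kg fell to 2 without vehicle tumour 2 or without vehicle tumour 3, and to 3 without vehicle tumour 1 or without tumour 1, 2 or 7 at 40 mg/kg. It was also 3 with array medians subtracted, with no variance trend or with a block for the replicate number. It was 2 without the pair of arrays least like the others. Probe sets 1431225_at and 1436790_a_at were called in each of these fits.

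Sox4, a second subgroup C gene, had no called change. Its brightest probe set, 1433575_at, was at percentile 99.4 of signal on average and read 4578, 5142 and 4471 in the vehicle tumours. It ran at 40 mg/kg from 3802 to 4947 with a median of 4609, and at 160 mg/kg from 2952 to 6044 with a median of 4672. The groups overlapped, with 2 treated tumours above and 6 below all vehicle tumours. The log2 difference for both doses was -0.07 (95% interval -0.34 to 0.21, adjusted p 0.805 in limma). That interval lies wholly below the interval of the Sox11 change.

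The further Sox4 probe sets disagreed in direction and none was called. Probe set 1419156_at read 486 ± 23.1 in vehicle, 578 ± 105 at 40 mg/kg and 631 ± 133 at 160 mg/kg, with 14 of 16 treated tumours above all vehicle tumours. By contrast 1449370_at read 406 ± 18.4, 330 ± 40.9 and 375 ± 132, with 13 of 16 below, although the array annotation gives both the same source sequence. The log2 differences over the 6 tested probe sets ran from -0.45 to 0.29. The lowest was that of the dim 1455867_at, with an adjusted p of 0.228. Across the 16 treated tumours, after each dose mean was subtracted, 4 of the other 5 correlated with 1433575_at at 0.78 to 0.88, and 1455867_at did so at 0.35. The same comparison for Sox11 gave 0.22 to 0.69.

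The promoters of these subgroup C genes are shown because the genes belong to 1 subgroup and Sox11 was called while Sox4 was not. Each line gives the 250 bases before the RefSeq start on GRCm38.p6, read 5′ to 3′ on the gene's own strand. Capitals mark matches on either strand of the CCAAT box (CCAAT) and of the GC box (GGGCGG), and the matches do not overlap. Sox11 lies on the minus strand with its window at chr12:27342719-27342968, and Sox4 on the minus strand at chr13:28953700-28953949.
Sox11: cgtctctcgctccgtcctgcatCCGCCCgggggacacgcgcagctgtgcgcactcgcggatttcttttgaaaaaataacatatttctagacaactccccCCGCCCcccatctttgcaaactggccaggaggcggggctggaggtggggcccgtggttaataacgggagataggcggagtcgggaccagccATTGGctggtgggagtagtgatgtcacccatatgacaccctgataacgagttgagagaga
Sox4: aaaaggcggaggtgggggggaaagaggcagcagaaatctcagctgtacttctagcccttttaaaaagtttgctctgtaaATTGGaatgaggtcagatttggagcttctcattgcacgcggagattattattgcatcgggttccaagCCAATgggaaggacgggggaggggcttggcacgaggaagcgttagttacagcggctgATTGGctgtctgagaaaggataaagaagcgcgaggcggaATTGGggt
The Sox11 window held 1 CCAAT box and 2 GC boxes at 58% G and C. The Sox4 window held 4 CCAAT boxes and no GC box at 50.8%. Among 32851 promoter windows of the same length, 33.8% held a CCAAT box, 32.7% a GC box, and the median content of G and C was 52.4%. The core of the Gli site (ACCACCC), the letters that the Hedgehog effectors bind, and a Sox site (AACAAT) were searched on both strands too. Neither was found in these windows, nor in those of Sox2, Sox5 and Sox8. They occur in 3.92% and 9.42% of all windows. Entries were found for 5 of the 7 genes, without Sox3 and Sox9. The letters describe the windows and say nothing on whether a factor is bound.

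Sox2, the subgroup B1 factor of neural stem cells, had 1 probe set, 1416967_at. The vehicle tumours read 672, 705 and 780. The range at 40 mg/kg was from 350 to 1199 with a median of 556, and at 160 mg/kg from 34.2 to 1067 with a median of 509. Of the 16 treated tumours 13 lay below all vehicle tumours and 3 above, tumours 1 and 7 at 40 mg/kg and tumour 1 at 160 mg/kg. The log2 difference was -0.65 (95% interval -1.93 to 0.62, adjusted p 0.553 in limma). At 160 mg/kg alone it was -1.07 (95% interval -2.44 to 0.30, adjusted p 0.368), an interval that holds both no change and a drop of more than 1 log2 unit.

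The lowest Sox2 readings were those of tumours 2 and 6 at 160 mg/kg, at 128 and 34.2, and the next lowest treated tumour read 350. In tumour 6 the marker sum of macrophages and microglia was 5593, against 909 to 1570 in vehicle, and that of fibroblasts 6692, against 2783 to 6151. The part of these host cells in the low Sox2 value was not tested. Atoh1 was at its highest in that same tumour, at 1954. In tumour 2 the macrophage sum was 747, below the vehicle range.

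The promoter of Sox2 is shown with that of Sox8 because these genes varied most widely among treated tumours of the members with bright probe sets. The Sox2 window lies on the plus strand at chr3:34649745-34649994 and the Sox8 window on the minus strand at chr17:25570687-25570936, marked as above.
Sox2: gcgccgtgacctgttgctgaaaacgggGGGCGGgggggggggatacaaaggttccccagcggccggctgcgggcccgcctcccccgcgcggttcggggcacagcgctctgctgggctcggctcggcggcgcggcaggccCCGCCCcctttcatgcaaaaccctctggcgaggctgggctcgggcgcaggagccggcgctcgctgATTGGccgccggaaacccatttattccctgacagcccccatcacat
Sox8: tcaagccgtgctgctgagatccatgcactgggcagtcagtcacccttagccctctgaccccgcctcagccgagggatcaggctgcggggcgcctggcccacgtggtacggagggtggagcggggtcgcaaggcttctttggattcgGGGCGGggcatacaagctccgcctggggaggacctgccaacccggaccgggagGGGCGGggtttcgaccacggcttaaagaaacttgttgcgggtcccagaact
The Sox2 window was 72% G and C with 1 CCAAT box and 2 GC boxes. That of Sox8 was 65.6% G and C with 2 GC boxes and no CCAAT box. The Sox5 window, at 39.6%, held neither.

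Sox3, the second B1 member, was dim. Probe set 1435192_at exceeded the 40th percentile on 10 of 19 arrays and read 14.2, 14.4 and 55.9 in the vehicle tumours. It ran from 4.70 to 55.6 at 40 mg/kg and from 3.30 to 40.0 at 160 mg/kg, so the vehicle range held 11 of the 16 treated values and 5 lay below it. Its log2 difference was -0.17 (95% interval -1.32 to 0.99, adjusted p 0.890 in limma). A second probe set, 1450485_at, passed the filter on 3 arrays and correlated with the first at -0.31. Both probe sets were too dim for a direction of Sox3 to be read.

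Sox8, a subgroup E factor of the glial lineage, gave the largest difference that missed the threshold. The vehicle tumours read 262, 361 and 314 on 1435438_at, its only probe set. At 40 mg/kg the signal ran from 103 to 337 with a median of 220, and at 160 mg/kg from 16.6 to 261 with a median of 125. No treated tumour lay above the vehicle tumours, and 13 of 16 lay below, 5 of 8 at 40 mg/kg and 8 of 8 at 160 mg/kg. The share of all probe sets with 8 of 8 tumours at 160 mg/kg below vehicle was not counted, so how common this is cannot be judged. The group means were 312 ± 49.4, 222 ± 76.0 and 135 ± 82.7.

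For both doses the log2 difference of Sox8 was -1.03 (SE 0.49, 95% interval -2.06 to -0.00), with an adjusted p of 0.231 in limma. At 160 mg/kg it was -1.51 (SE 0.53, 95% interval -2.62 to -0.40), with an adjusted p of 0.112. With array weights, a fit that gives arrays of smaller residuals more influence, it was -0.76 with an adjusted p of 0.0451 for both doses and -1.20 with 0.0152 at 160 mg/kg. That fit gave vehicle tumour 1 a weight of 5.46 and called 8907 of all 31143 probe sets. Sox8 was called in no other fit.

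Sox9, the subgroup E factor of neural stem cells and astrocytes, read 382, 300 and 347 in the vehicle tumours on 1424950_at. Treated tumours ran from 180 to 326 at 40 mg/kg with a median of 221, and at 160 mg/kg from 92.8 to 415 with a median of 210. Of the 16 treated tumours 11 lay below all vehicle tumours and 1 above, tumour 1 at 160 mg/kg. The log2 difference was -0.64 (SE 0.31, 95% interval -1.29 to 0.01, adjusted p 0.244 in limma). The second probe set, 1451538_at, correlated with it at 0.94 over the treated tumours and gave -0.50 with an adjusted p of 0.308. With array weights both passed, the first at -0.72 with an adjusted p of 0.0138. That fit also called 1450485_at of Sox3 and 1455867_at of Sox4.

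Sox5, the subgroup D member, had nearly equal group means, at 99.4 ± 2.03, 97.7 ± 25.2 and 98.5 ± 21.1. Its vehicle tumours lay close together at 97.2, 101 and 99.8 on 1423500_a_at. At 40 mg/kg the signal ran from 48.5 to 130 with a median of 94.1, and at 160 mg/kg from 70.5 to 129 with a median of 93.0. The treated tumours fell on both sides, 6 above and 10 below all vehicle tumours. The log2 difference was -0.06 (95% interval -0.49 to 0.38, adjusted p 0.901 in limma), and the other 3 tested probe sets gave -0.43 to -0.12 with none called.

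**Figure D3:**
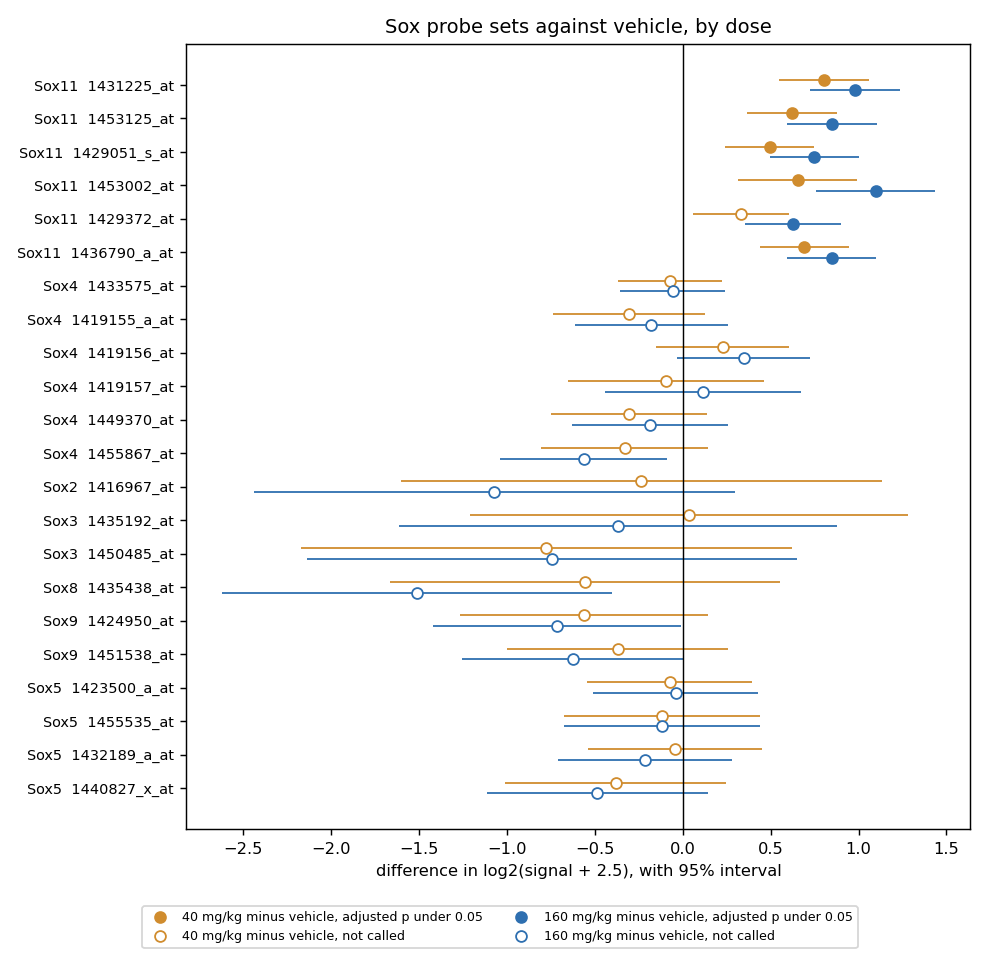
Difference from vehicle in log2(signal + 2.5) (horizontal axis) with its 95% interval for each of the 22 tested Sox probe sets (vertical axis), at 40 mg/kg (orange) and 160 mg/kg (blue); filled points passed an adjusted p under 0.05 in limma. Filled points are those of Sox11, on 5 probe sets at 40 mg/kg and 6 at 160 mg/kg, and the widest intervals are those of Sox2, Sox3 and Sox8.

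Between the doses, no Sox probe set was called in limma, where 0% of all probe sets tested were, and the count was 0 with array weights as well. At an unadjusted p under 0.05 there were 5, and 2122 (6.81%) of all 31143. Of the 5, 4 were Sox11 probe sets. Over the 6 Sox11 probe sets the log2 difference of 160 from 40 mg/kg ran from 0.15 to 0.44, with adjusted p from 0.640 to 0.783. On the representative probe set it was 0.18 (95% interval -0.01 to 0.36). The remaining probe set was that of Sox8, at -0.96 (95% interval -1.77 to -0.14, adjusted p 0.684). Sox2 gave -0.84 (95% interval -1.85 to 0.17), Sox9 -0.15 (-0.67 to 0.37), Sox4 0.02 (-0.20 to 0.24) and Sox5 0.03 (-0.31 to 0.38).

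The members differed in how much tumours of a group varied. Sox11 and Sox4 were narrow at 40 mg/kg, where the SD of log2 signal was 0.12 for each, at percentiles 8.08 and 8.45 of all probe sets tested. At 160 mg/kg the SD was 0.21 for Sox11, at percentile 20.6, and 0.32 for Sox4, at percentile 44.5. These ranks are among probe sets of all signal levels, while Sox11 and Sox4 were at mean signal percentiles 98.7 and 99.4. They were not ranked among equally bright probe sets. Sox2 was narrow in vehicle, at 0.11, and wide in treated tumours, at 0.55 at 40 mg/kg and 1.55 at 160 mg/kg, the latter at percentile 99.1. Its highest treated tumour read 35.1 times its lowest. Sox8 had SDs of 0.23, 0.55 and 1.20, the last at percentile 97.2, and a ratio of 20.3. For Sox11 the same ratio was 1.57. With 3 vehicle tumours, the vehicle SDs are themselves poorly known.

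**Figure D4:**
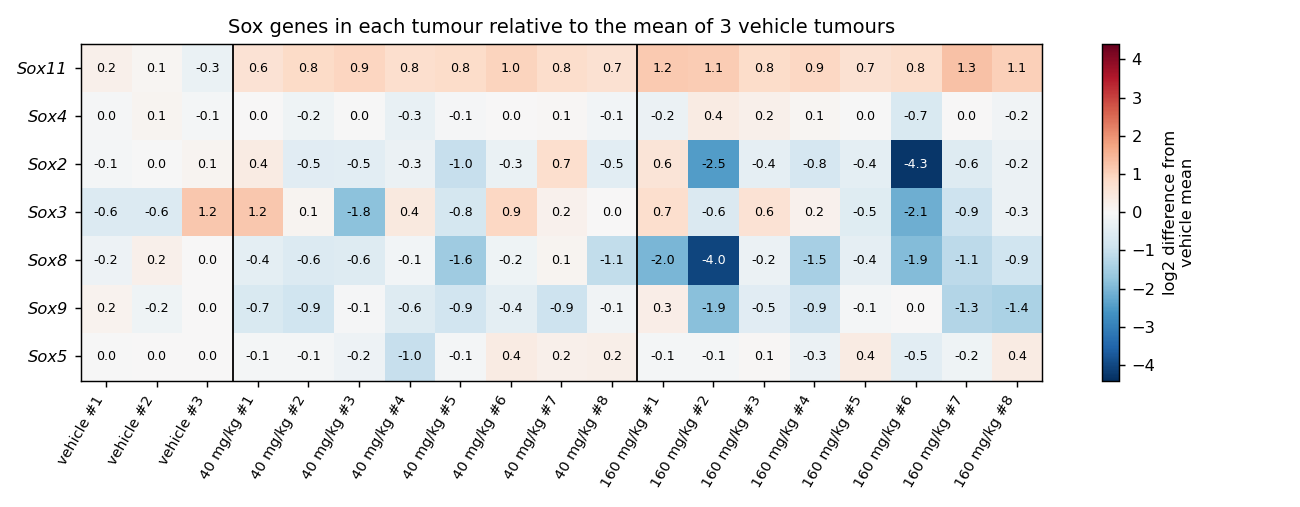
Difference in log2(signal + 2.5) from the mean of the 3 vehicle tumours (colour and printed value) for the brightest probe set of each Sox gene (rows) in each of 19 tumours (columns, grouped by dose). The Sox11 row is positive in all 16 treated tumours, and the darkest cells are those of Sox2 in tumour 6 and of Sox8 in tumour 2 at 160 mg/kg.

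Tumours 2 and 6 at 160 mg/kg stood apart within the set. Tumour 6 was among the lowest 3 of 16 treated tumours in 5 of the 7 genes and the lowest in Sox2, Sox4 and the dim Sox3. Tumour 2 was the lowest in Sox8 and Sox9, at 16.6 and 92.8, and second lowest in Sox2, but the highest of all in Sox4, at 6044. Its Sox11 signal was 3684, above the group mean. The skin list, which rested on Krt10, summed to 299 in tumour 2 and 953 in tumour 6, against 5193 to 5929 in vehicle. In vehicle nearly all of that sum was Krt10, which read 5081 to 5736 there and 161 and 878 in tumours 2 and 6. Krt1, Krt14, Krt15 and Trp63 of the list did not pass the filter, so the sum does not measure skin. The relation of Krt10 to the Sox values was not tested. Without tumour 2 and vehicle tumour 3, the Sox11 difference for both doses was 0.73 with an adjusted p of 0.0103 in limma.

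Across the 16 treated tumours, after subtraction of dose means, 21 pairs of members were compared. The permutations shuffled all 16 tumours together and not within dose. Sox2, Sox4 and Sox8 varied more at 160 mg/kg, so the permutation p-values are approximate. The highest Pearson's r was that of Sox2 with Sox3, at 0.67 (permutation p 0.00499, adjusted 0.105), with a Spearman's rho of 0.64 (permutation p 0.00870, adjusted 0.0914). Without tumours 2 and 6 at 160 mg/kg, which lay farthest from the Sox2 median, r was 0.52. Sox3 was dim and its second probe set correlated with the first at -0.31, so this pair is uncertain. Sox2 and Sox8 gave r 0.52 (permutation p 0.0542, adjusted 0.379) and the highest rho, 0.66 (permutation p 0.00678, adjusted 0.0914), and r was 0.41 without those tumours. Sox4 and Sox9 gave r -0.52 (permutation p 0.0387, adjusted 0.379) and -0.12 without them, so that relation rested on those 2 tumours. After adjustment no pair passed 0.05. For Sox11 the correlations with other members ran from -0.34 to 0.19.

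The genes most like each member were taken as the 3 of 12747 with the highest r over the same 16 tumours. Genes picked from so many by their r are a description, and no test goes with them. For Sox2 they were Fancc (r 0.91, rho 0.76), Arid5a (0.90, 0.78) and Ptprz1 (0.89, 0.88), and for Sox9 they were Nkd1 (0.88, 0.74), Gli3 (0.87, 0.82) and Chsy1 (0.86, 0.95). Sox8 was closest to Cym (0.90, 0.69), Zcchc24 and Rap1gap, and Sox4 to Mxd3 (0.91, 0.79), Zfp825 and Slf1. For Sox11 H2-T18 (0.84, 0.83), Tes and Zbtb46 came first, for Sox5 Nrtn (0.86, 0.76), Gpld1 and Dync1i1, and for Sox3 Cdo1 (0.88, 0.86), Kcnk13 and Ptpn14. Gli3, Cym and H2-T18 were dim, above the 40th percentile on 3, 3 and 6 of 19 arrays. Gli3 ran from 6.7 to 26.3 in the treated tumours and Cym from 5.2 to 25. Their r values thus rest on readings near the floor, and no link with Sox9, Sox8 or Sox11 can be read from them. Fancc and Arid5a, above the 40th percentile on 17 and 14 of 19 arrays, each fell to 4.3 in a treated tumour. Their r with Sox2 thus rests in part on readings near the floor too. Ptprz1, a receptor phosphatase of radial glia, read 32.3 in tumour 6 and 81.8 in tumour 2 at 160 mg/kg, the lowest of the treated tumours, where Sox2 was also lowest. Ptprz1 was picked by its r with Sox2, so these shared low tumours add nothing to that r. In vehicle it read 68.2 to 77.9, and 15 of 16 treated tumours, tumour 2 included, lay above all vehicle tumours. For Sox2 13 of 16 lay below.

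Other Sox genes gave no call. Of 12 listed, 9 were tested, 0 were called higher and 0 lower in limma, 3 had an unadjusted p under 0.05 (23.3% of all genes tested did), and their median log2 difference was 0.05, beside -0.06 over all 13454 genes, of which 2.84% were called higher and 2.45% lower. Sox1, the third subgroup B1 factor, came nearest. It read 910 ± 109 in vehicle, 456 ± 163 at 40 mg/kg and 483 ± 171 at 160 mg/kg on 1438729_at. All 16 treated tumours lay below all 3 vehicle tumours, as for 2.01% of all probe sets, yet the log2 difference of -1.03 (SE 0.30) had an adjusted p of 0.0506 in limma. It passed in 7 of 19 fits without an array and in 4 of 11 other settings. A second, dimmer Sox1 probe set, 1422205_at, gave -0.65 with an adjusted p of 0.475 in limma. On that probe set 5 of 16 treated tumours lay below all vehicle tumours. Sox12, the remaining subgroup C gene, gave -0.34 with an adjusted p of 0.231.

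Among known partners and targets of subgroup B and C factors, 14 of 15 were tested, 2 were called higher and 2 lower for both doses, and the median was 0.18. By dose, Dcx alone was called at 40 mg/kg and all 4 at 160 mg/kg. Fewer genes of any kind were called at 40 mg/kg, 1.7% higher and 0.847% lower, beside 2.45% and 2.45% at 160 mg/kg. Those higher were neuronal cytoskeleton genes. Dcx, a microtubule protein of migrating neurons, read 514 ± 82.3 in vehicle, 1102 ± 296 at 40 mg/kg and 1084 ± 219 at 160 mg/kg, above all vehicle tumours in 16 of 16. Its log2 difference was 1.06 with an adjusted p of 0.00248 in limma. Tubb3, the neuronal tubulin that Sox4 and Sox11 can activate, read 302 ± 116, 636 ± 244 and 620 ± 162, a difference of 1.06 with an adjusted p of 0.0267. It was not called without vehicle tumour 2 (adjusted p 0.0991) or without vehicle tumour 3 (0.251).

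Those lower were Pou3f2 and Tead2. Pou3f2, a POU factor that pairs with Sox2 and with Sox11 on neural enhancers, read 207 ± 58.5, 102 ± 28.7 and 76.9 ± 27.6, below all vehicle tumours in 16 of 16. Its log2 difference was -1.24 (SE 0.27), with an adjusted p of 0.0137 in limma, and it was not called without vehicle tumour 1 (adjusted p 0.0545) or vehicle tumour 3 (0.154). Tead2, a transcription factor of the Hippo pathway and a target of Sox4 and Sox11, read 640 ± 42.2, 368 ± 98.2 and 340 ± 104. Its difference of -0.91 had an adjusted p of 0.0348, and the call was lost without any 1 of the 3 vehicle tumours (adjusted p 0.0947 to 0.164), with array medians subtracted (0.0713) and with no variance trend (0.0514). Dcx was called in all 19 fits without an array. Without vehicle tumour 3 and tumour 2 at 160 mg/kg the calls of Tubb3, Pou3f2 and Tead2 were lost, at adjusted p of 0.153, 0.109 and 0.0975.

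Of 20 genes of neural progenitors and radial glia, 19 were tested. For both doses 1 was called higher and 1 lower, where 2.84% and 2.45% of all genes were, and the median was -0.09. At 160 mg/kg alone Hes1 was called lower as well. Prom1, a membrane protein that marks neural stem cells, fell from 1287 ± 92.6 in vehicle to 678 ± 200 and 545 ± 87.2, lower in 16 of 16. Its log2 difference was -1.11 (SE 0.17, adjusted p 0.00144 in limma), and it was called in all 19 fits without an array. Fabp7, the fatty acid binding protein of radial glia, gave 3.59 with an adjusted p of 0.0135 and lay above all vehicle tumours in 15 of 16. The exception was tumour 6 at 160 mg/kg, where it read 44.7 and Sox2 was at its lowest, and it was not called without vehicle tumour 1, 2 or 3 (adjusted p 0.0583 to 0.105), nor without vehicle tumour 3 and tumour 2 at 160 mg/kg (0.0748). Nes, an intermediate filament gene with a Sox2-bound enhancer, read 499 ± 85.0 in vehicle, 271 ± 79.0 and 249 ± 124, with an adjusted p of 0.139.

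Among targets and partners of subgroup E and D factors, 13 of 17 were tested, 1 was called higher and 0 lower, with a median of 0.18. That gene was Col9a1, a collagen that Sox9 activates in cartilage, at 51.2 ± 7.87 in vehicle, 243 ± 139 at 40 mg/kg and 247 ± 137 at 160 mg/kg. Its log2 difference was 2.03 (SE 0.42, adjusted p 0.00901 in limma), and all 16 treated tumours lay above the vehicle tumours. It was not called without vehicle tumour 2 (adjusted p 0.0620) or vehicle tumour 3 (0.0592), nor without vehicle tumour 3 and tumour 2 at 160 mg/kg (0.0527). The other cartilage genes were dim: Col2a1 read 16.9 ± 9.78 in vehicle and at most 83.5 in a treated tumour, and Acan at most 32.2. Olig2, a factor of the oligodendrocyte lineage, had 8 treated tumours above and 8 below all vehicle tumours.

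Markers of other cells varied widely between tumours. The summed signal of 7 tested astrocyte genes was 3831 to 4354 in vehicle and 1386 to 4990 in treated tumours, lowest in tumour 6 at 160 mg/kg. All treated tumours except tumour 4 at 40 mg/kg lay below the vehicle range of that sum. For 11 tested oligodendrocyte genes it was 2427 to 2690 and 2021 to 7970, with Cldn11 called higher. The 6 tested cartilage genes summed to 124 to 173 and 175 to 650, with Col9a1 called higher. In the granule neuron precursor list, 4 of 15 tested genes were called higher (Cntn2, Nhlh2, Neurod1 and Zic1) and 0 lower. Of the 15, 8 had a positive difference, and the median was 0.02. Their sum was 14671 to 14769 in vehicle and 14255 to 24672 in treated tumours. Every treated tumour except tumour 3 at 160 mg/kg lay above the vehicle range. The sum was highest in tumour 2 at 160 mg/kg, where Atoh1 read 22.5 and Barhl1 32.7, so it does not track those genes. Fibroblast, macrophage and muscle genes had 0 called in limma of 8, 9 and 10 tested, with 0, 0 and 1 at an unadjusted p under 0.05. Of 8 tested endothelial genes Flt1 was called lower. None of the 3 tested skin genes was called in limma, all 3 had an unadjusted p under 0.05, as did 23.3% of all genes tested, and their sum was 5193 to 5929 in vehicle and 299 to 5331 in treated tumours. In vehicle that sum was nearly all Krt10, and Krt1, Krt14, Krt15 and Trp63 did not pass the filter, so it does not measure skin. In the astrocyte list Aldoc was called higher and Gja1 lower. The part of these cells in the Sox11 result was not tested.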

How the data were processed

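The deposited values are signal intensity on a linear scale, 1 array per tumour, made by the authors with MAS5 per the submitters' processing notes. MAS5 subtracts background and mismatch signal per probe set and scales each array. Its version and target are not given in the sources used here, and the trimmed mean was 149 to 150 on every array. The series text names the 430A 2.0 array, whereas the table holds the 45101 probe sets of the larger design. Genes were named from the platform table for 34945 probe sets with 1 symbol, and all 28 Sox probe sets matched the GRCm38.p6 gene table by Entrez identifier.

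Here log2(signal + 2.5) was fitted with limma 3.58.1 (R 4.3.3) as 3 group means over 19 arrays, with a variance trend, two-sided tests and Benjamini-Hochberg adjustment over 31143 probe sets; fold changes on this scale understate those of dim genes. Intervals are 95% intervals of the fit. A gene is represented by its brightest kept probe set. Genes named are the members, the 3 most alike in the treated tumours, and up to 4 per list by p; other list genes given with values (Atoh1, Barhl1, Olig2, Nes, Sox12 and the cartilage genes) were named after their values were seen. The members and lists were chosen with earlier results of these data known. Median signals ran from 32.7 to 49.7, the number of arrays limits precision, and 0 pairs of arrays were identical. Same-numbered tumours of different groups did not deviate together (0 of 14 pairs above 0.1, from -0.13 to 0.09), so numbers were not used as a block in the fit reported. Alternatives were pseudocounts of 1 and 16, no filter or the 60th percentile, quantile normalization, array medians, no trend, array weights, a replicate block, only the groups compared, averaged probe sets, and arrays left out. The CCAAT and GC box searches were added after the first motifs were run. The fit was tested on simulated data.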

Additional observations from a re-analysis of the deposited data

Results flagged for a closer look

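In 2 of 14 groups of 8 tumours checked, a tumour lay farther from the others than Dixon's 95% critical value allows in log2 signal; chance gives about 1 in 20 groups. Sox8 read 16.6 in tumour 2 at 160 mg/kg, where the next lowest tumour read 74.6, a gap of 0.532 of the range. In that tumour Atoh1 read 22.5 and Barhl1 32.7, the lowest of all 19 tumours, while Zic1 read 5903. Sox5 read 48.5 in tumour 4 at 40 mg/kg, where the next lowest read 85.3, a gap of 0.571 of the range. The 3 other tested Sox5 probe sets were also lowest of their group there, at 49.1, 50.7 and 28.4. Sox4 in that tumour was 3802, the lowest at 40 mg/kg, and Sox11 was 2845.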

How the results depend on the processing

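The number of Sox probe sets called for both doses was 6, from 4 to 11 in other settings (11 with array weights) and 5 to 6 with an array left out. At 40 mg/kg it was 5, and 3 with array medians subtracted, 3 with no variance trend, 8 with array weights, 3 with the replicate block, 2 without the 2 arrays least like the others, and 2 to 5 with an array left out. At 160 mg/kg it was 6, 10 with array weights and 5 to 6 with an array left out. Between doses no Sox probe set was called in any setting run. Over all probe sets the count for both doses was 1392, with 8907 with array weights, 819 with the replicate block, 274 without those 2 arrays, and 425, 472 and 243 without vehicle tumours 1, 2 and 3. At 40 mg/kg it was 668, with 7452, 324 and 169 for the first 3 of these, 1553 with only the groups compared, 194, 194 and 120 without vehicle tumours 1, 2 and 3, and 418 to 443 without tumour 1, 2 or 7 at 40 mg/kg. At 160 mg/kg it was 1260, with 6145 with array weights, 220 without the 2 arrays, 629 with only the groups compared, and 453, 572 and 217 without vehicle tumours 1, 2 and 3. Between doses it was 0, and 1 with no variance trend. The replicate block changed no other Sox call, and the causes of these moves were not tested.

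Sox3, Sox4 and Sox5 had differences near 0 whose sign turned. With the replicate block, Sox3 was 0.036 for both doses, and Sox4 was 0.024, 0.016 and 0.032 for both doses, 40 and 160 mg/kg. With medians subtracted Sox4 was 0.0012 and 0.038 and Sox5 0.01 and 0.056 for both doses and 160 mg/kg. With quantile normalization Sox5 at 160 mg/kg was 0.0048 and Sox4 between doses -0.023. With array weights Sox3 was 0.35 and 0.19 for both doses and 160 mg/kg, and between doses Sox4 was -0.021 and Sox5 -0.022. Without the 2 arrays Sox3 was 0.45 and 0.27, and between doses Sox4 was -0.044 and Sox9 0.0078. With probe sets averaged Sox3 at 40 mg/kg was -0.37 and Sox5 between doses -0.060. With an array left out, Sox3 ran from -0.47 to 0.43, -0.27 to 0.63 and -0.67 to 0.23 for both doses, 40 and 160 mg/kg; Sox4 from -0.12 to 0.030 at 160 mg/kg and -0.044 to 0.10 between doses; Sox5 from -0.089 to 0.0089, -0.14 to 0.058, -0.10 to 0.023 and -0.10 to 0.10; and Sox9 between doses from -0.30 to 0.01.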

Other observations

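Sox2ot, a noncoding transcript annotated over Sox2, was read by 1460587_at, a dim probe set above the 40th percentile on 11 of 19 arrays. It read 9.73 ± 9.52 in vehicle (SD, n = 3), 47.3 ± 39.8 at 40 mg/kg and 40.5 ± 36.8 at 160 mg/kg (n = 8 each). All 3 vehicle readings lay below the 40th percentile of their arrays, so no difference from vehicle is given. Within the dose groups the 2 readings followed each other, at Pearson's r 0.87 (permutation p 1e-05, the smallest that 100000 permutations can give) and Spearman's rho 0.76 (permutation p 0.00091) over 16 treated tumours. These permutations also shuffled both doses together, so their p-values are approximate. Without the tumours farthest from the Sox2 median r was 0.78 over 14. Sox2ot was looked at because of its position over Sox2, and it read 0.5 in tumour 6 at 160 mg/kg, the lowest of all 19.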
